A study of Mus musculus with 6 samples.

Results

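The Kupffer cell markers described here are 10 genes that are widely used to recognise the resident macrophages of the liver. They were chosen by name, as Clec4f, Vsig4, Cd5l, Marco, Timd4, Adgre1, Cd68, Csf1r, Cd163 and Folr2, and all 10 were found among the 47232 gene names used here. All 10 also passed the filter on low values and belong to the 18619 genes tested. Their transcripts were measured by RNA-Seq in frozen liver of 6 house mice (Mus musculus), 1 library per mouse. The 3 laboratory mice were inbred C57BL/6 males aged 17 to 18 weeks that came from a breeder and were killed on arrival. The 3 wild mice were outbred adults, live-trapped at 2 sites in New South Wales and housed for 3 months before they were killed by cervical dislocation. Wild mouse 1 was male and wild mice 2 and 3 were female. Wild mice 1 and 2 came from Murrumbateman and wild mouse 3 from Yass, so that the only wild male and the only mouse from Yass were each a single animal.

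Kupffer cells sit inside the sinusoids of the liver, where they take up bacteria, worn red cells and dead cells from portal and arterial blood. They are seeded from embryonic precursors and renew themselves in place, and monocytes from blood can replace them when they are lost. Their identity depends on growth factor signalling through the receptor that Csf1r encodes and on signals from neighbouring endothelial, stellate and hepatic cells. In whole liver they are a minority among hepatocytes, so a marker level in bulk tissue reflects both how many Kupffer cells there are and how much of the transcript each one holds. Fewer cells and less RNA per cell cannot be told apart in these data.

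Promoter sequences are shown for the markers that mark the extremes of the results that follow. Marco and Cd5l differed most among the wild mice on log2(FPKM + 0.1), FPKM being the expression level per transcript length and library size, in the direction shared by 9 markers, Vsig4 and Clec4f were 2 of the most abundant markers, and Folr2 ran in the opposite direction. The sequences are from RefSeq on GRCm38.p6, and the table of promoters used here matched 8 of the 10 markers with 9 promoters. Each line gives the 150 bases before the start of transcription, 5′ to 3′ on the strand of the gene. The windows are chr1:120505025-120505174 (minus strand) for Marco, chr3:87357731-87357880 (plus strand) for Cd5l, chrX:96293439-96293588 (minus strand) for Vsig4, chr6:83656117-83656266 (minus strand) for Clec4f and chr7:101857191-101857340 (minus strand) for the upstream start of Folr2. Capitals mark the core letters GAGGAA of sites for PU.1, the transcription factor that macrophages depend on, read on either strand.
Marco: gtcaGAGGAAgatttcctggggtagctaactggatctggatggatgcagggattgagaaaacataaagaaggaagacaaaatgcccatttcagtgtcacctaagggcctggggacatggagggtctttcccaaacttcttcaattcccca
Cd5l: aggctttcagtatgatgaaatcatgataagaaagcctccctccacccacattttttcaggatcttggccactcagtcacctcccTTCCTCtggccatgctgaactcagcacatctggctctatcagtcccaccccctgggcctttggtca
Vsig4: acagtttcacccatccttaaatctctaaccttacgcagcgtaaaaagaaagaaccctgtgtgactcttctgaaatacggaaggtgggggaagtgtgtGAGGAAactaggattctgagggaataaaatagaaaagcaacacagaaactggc
Clec4f: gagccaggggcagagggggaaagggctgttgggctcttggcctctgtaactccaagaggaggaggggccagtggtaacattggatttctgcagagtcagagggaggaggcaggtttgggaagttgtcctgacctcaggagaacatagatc
Folr2: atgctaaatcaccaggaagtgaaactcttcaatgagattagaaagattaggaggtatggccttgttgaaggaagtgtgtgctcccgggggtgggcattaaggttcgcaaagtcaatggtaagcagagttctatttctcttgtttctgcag

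In the printed windows the core lay at positions -146 to -141 from the start in Marco, -66 to -61 in Cd5l and -53 to -48 in Vsig4. Over the 250 bases before each start, 4 of the 9 marker promoters (Marco, Cd5l, Cd68 and Vsig4) held GAGGAA on either strand, against 23.3% of 32851 promoters. The letters GAAANNGAA, the core of sites for interferon regulatory factors, were in 2 promoters (Folr2 and Timd4), against 7.13% of all. The letters AGGTCA, bound by many nuclear receptors, were in those of Clec4f and Timd4, against 14% of all. The MAF core TGCTGAC was in 1 promoter (Timd4; 3.81% of all), the RBPJ core TGGGAA in 3 (Marco, Clec4f and Cd68; 21.6% of all), and neither TATAAA (12.4% of all) nor CACGTG (6.02% of all) was in any. No searched motif contains another. These are matches of letters and not sites of binding, since no binding was measured here.

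The level of each gene is given in FPKM, the fragments mapped to a gene divided by the length of its transcript and by the size of the library. Levels of different genes can therefore be compared within a mouse. All 10 markers are protein coding, and positions are on GRCm38. Clec4f lies at chr6:83644542-83656116, Vsig4 at chrX:96247201-96293438, Cd5l at chr3:87357881-87371074, Marco at chr1:120474538-120505024 and Timd4 at chr11:46810786-46844333. Adgre1 lies at chr17:57358581-57483529, Cd68 at chr11:69664213-69666170, Cd163 at chr6:124304636-124330529 and Folr2 at chr7:101839988-101857190. Folr2 overlaps an antisense gene (Gm10602) and a processed pseudogene (Gm45319) on the other strand. The libraries were stranded, but the strand setting of the counting is not given in the sources used here, so reads of Folr2 and of its antisense neighbour may not have been separated.

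Clec4f, a C-type lectin receptor found on Kupffer cells and used as their most specific marker in mouse, had an FPKM of 22.8, 16.2 and 22.2 in C57BL/6 (laboratory) mice 1, 2 and 3 and of 6.02, 18.8 and 28.9 in wild mice 1, 2 and 3. It was the most abundant of the 10 markers in 5 of the 6 mice, and second in wild mouse 3. The laboratory mean of 20.4 ± 3.64 (SD, n = 3) lay inside the wild range, whose mean was 17.9 ± 11.5 (SD, n = 3). Vsig4, the complement receptor CRIg that captures opsonised bacteria from blood, had an FPKM of 6.48, 4.49 and 3.50 in the C57BL/6 mice and of 3.23, 8.57 and 21.8 in the wild mice. Wild mouse 1 lay just under the lowest laboratory mouse and the other wild mice lay above all C57BL/6 mice. The means were 4.82 ± 1.52 (SD, n = 3) and 11.2 ± 9.55 (SD, n = 3).

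Cd5l, a secreted protein of the scavenger receptor cysteine-rich family that tissue macrophages release into blood, had an FPKM of 2.75, 2.70 and 2.06 in the C57BL/6 mice. In wild mice 1, 2 and 3 it was 1.40, 10.2 and 36.1, so that Cd5l was the most abundant marker in wild mouse 3. The C57BL/6 mice differed by 1.33 times from lowest to highest and the wild mice by 25.9 times. The means were 2.50 ± 0.381 (SD, n = 3) and 15.9 ± 18.1 (SD, n = 3).

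Marco, a class A scavenger receptor for bacteria and particles, had an FPKM of 1.39, 2.63 and 1.10 in the C57BL/6 mice and of 0.168, 0.601 and 14.7 in the wild mice. Here wild mice 1 and 2 lay below all C57BL/6 mice and wild mouse 3 above them, and the ratio of wild mouse 3 to wild mouse 1 was 87.6, the widest of the 10. The authors' Cufflinks bounds of 95% on the Marco level of wild mouse 1 ran from 0.0337 to 0.302, so the lower end of that ratio rests on little signal. Timd4, the phosphatidylserine receptor TIM-4 that binds dying cells and marks long-lived resident Kupffer cells, had an FPKM of 1.69, 1.19 and 0.958 in the C57BL/6 mice and of 0.439, 1.80 and 3.18 in the wild mice. Wild mouse 1 was again the lowest of the 6 and wild mouse 3 the highest.

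The 3 markers shared with most macrophages showed the same order. Adgre1, which encodes the F4/80 antigen, had an FPKM of 0.949, 0.756 and 0.431 in the C57BL/6 mice and of 0.288, 2.09 and 4.87 in the wild mice. Cd68, a glycoprotein of macrophage lysosomes, had an FPKM of 7.56, 7.26 and 5.50 in the C57BL/6 mice and of 0.886, 6.31 and 14.9 in the wild mice. For Cd68 wild mouse 2 fell inside the laboratory range, while for Adgre1 it lay above it. Csf1r (chr18:61105572-61131139), the receptor for the growth factors CSF1 and IL-34, had an FPKM of 5.71, 4.52 and 3.90 in the C57BL/6 mice and of 1.30, 5.74 and 11.4 in the wild mice. Wild mouse 2 exceeded the highest laboratory mouse by less than the spread among C57BL/6 mice.

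Cd163, the receptor that clears complexes of haemoglobin and haptoglobin, was the least abundant marker in 4 of the 6 mice. Its FPKM was 0.625, 0.626 and 0.627 in the C57BL/6 mice, a nearness that exceeds the precision of single values, since the Cufflinks bounds of laboratory mouse 2 ran from 0.448 to 0.803. In the wild mice it was 0.0633, 0.141 and 1.73, with a lower bound of 0 in wild mouse 1. Folr2, the folate receptor beta of resident macrophages, ran the other way. Its FPKM was 5.07, 3.94 and 1.59 in the C57BL/6 mice and 1.99, 0.914 and 0.119 in wild mice 1, 2 and 3, so that wild mouse 1 was the highest and wild mouse 3 the lowest of the wild mice, with a lower bound of 0 in wild mouse 3. The means were 3.53 ± 1.78 (SD, n = 3) and 1.01 ± 0.94 (SD, n = 3), and wild mouse 1 overlapped the C57BL/6 mice. The neighbouring Folr1 was listed at no more than 0.243 in any mouse.

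**Figure D1:**
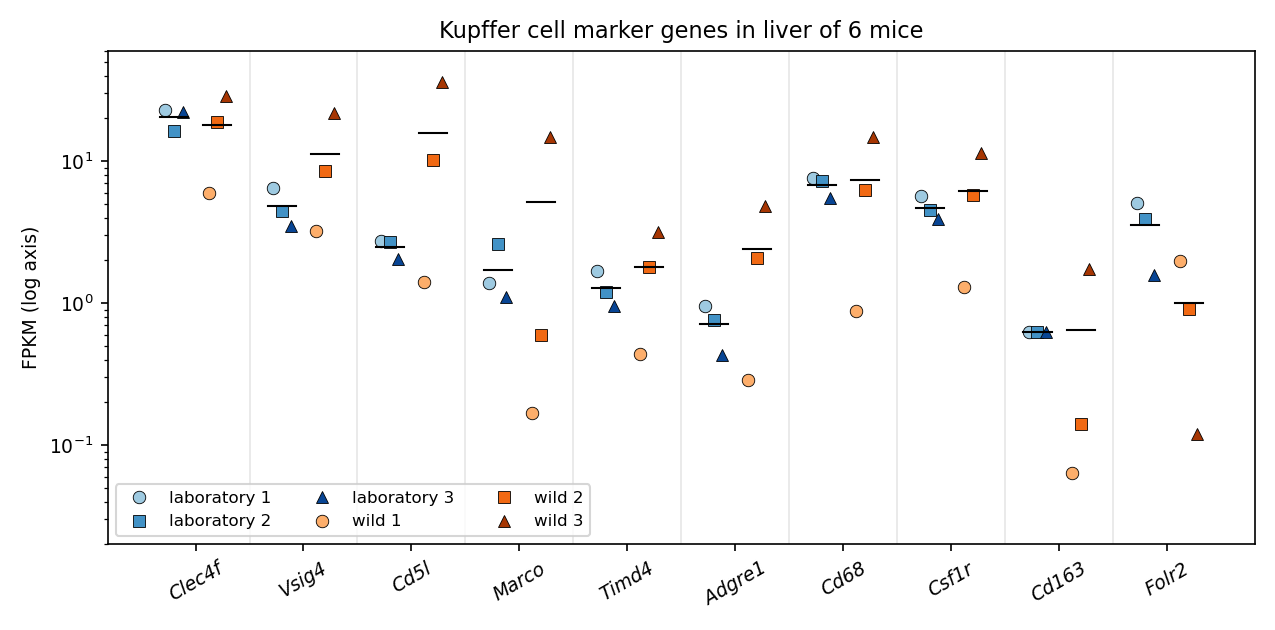
FPKM of the 10 markers (log axis) in each mouse, with C57BL/6 mice in blue and wild mice in orange and a bar at the mean of each group. Wild mouse 1 is the lowest and wild mouse 3 the highest of the 6 mice for 9 markers, and Folr2 has the opposite order among the wild mice.

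Read together, 9 of the 10 markers were lowest of all 6 mice in wild mouse 1, against 13.4% of the 18619 tested genes, and 9 were highest in wild mouse 3, against 28.6%. The 9 are the same genes in both counts, all but Folr2. Wild mouse 1 was the lowest and wild mouse 3 the highest of the wild mice for the same 9 (26.7% of all genes), and wild mouse 3 was at least 2 times wild mouse 1 on FPKM + 0.1 for the same 9 (12% of all genes). The ratio of wild mouse 3 to wild mouse 1 was 4.8 for Clec4f, 6.74 for Vsig4, 7.23 for Timd4, 8.78 for Csf1r, 16.8 for Cd68, 16.9 for Adgre1, 25.9 for Cd5l, 27.4 for Cd163 and 87.6 for Marco. For Folr2 it was 0.0599. On the scale of log2(FPKM + 0.1) the median difference between these mice was 3.26 over the markers and 0.12 over all tested genes. Each of the 9 stood above at least 97.6% of all tested genes in this difference, and Folr2 stood above 0.242% of them. These counts and shares restate a single pattern in the same few wild animals. The order of the mice was taken from the marker values themselves, so the shares describe it and do not test it.

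**Figure D2:**
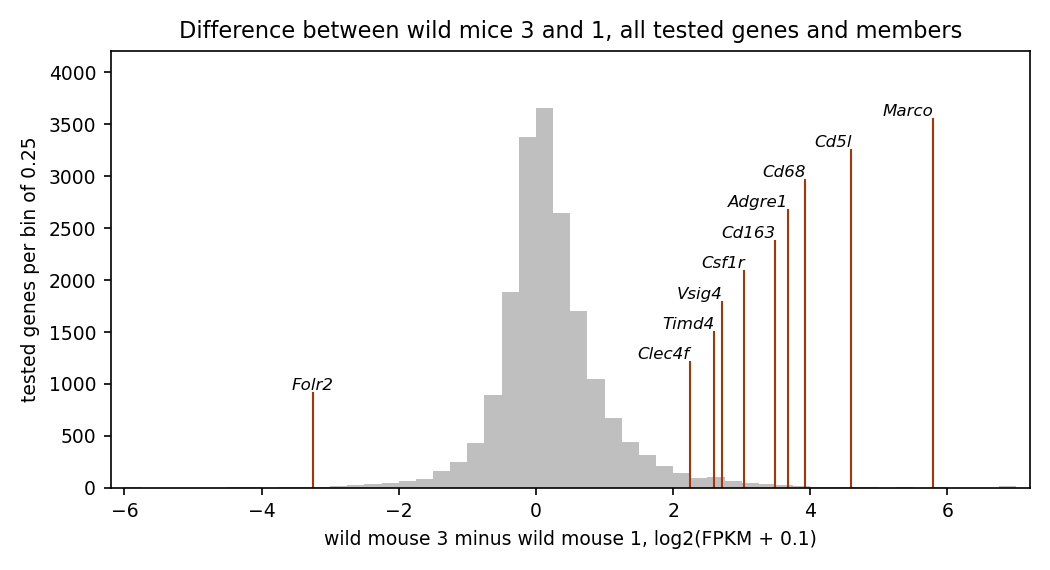
Difference between wild mouse 3 and wild mouse 1 on log2(FPKM + 0.1) for the 18619 tested genes (grey histogram, genes per bin of 0.25, with values beyond the axis gathered in the end bins) and for the 10 markers (lines, whose heights only separate the names). The lines of 9 markers lie between 2.24 for Clec4f and 5.79 for Marco, and Folr2 lies at -3.25.

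The Cufflinks bounds, which cover the error of estimating 1 library and not the spread between animals, did not overlap between wild mice 1 and 3 for all 10 markers. They were also apart for 10 of 10 between wild mice 2 and 3 and for 9 of 10 between wild mice 1 and 2, where Cd163 overlapped. Between laboratory mice 2 and 3 they were apart for 3 of 10. Bounds are not given for laboratory mouse 1.

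The C57BL/6 mice were closer to each other. Their highest FPKM was at most 3.19 times the lowest, a ratio reached by Folr2. The SD on log2(FPKM + 0.1) was larger in wild than in C57BL/6 mice for 10 of 10 markers, against 47.6% of all tested genes. Its median over the markers was 0.328 in C57BL/6 mice and 1.77 in wild mice, and over all genes 0.301 and 0.278. The wild spread of every marker, Clec4f at 1.16 and Marco at 3.02 being the ends, lay above that of at least 95.4% of all tested genes. A larger SD in wild mice was not particular to the markers among the lists described below. It held for 15 of 16 general macrophage genes, 8 of 8 monocyte and recruited macrophage genes and 10 of 10 sinusoidal endothelial markers. It was rarer among neutrophil markers (2 of 5) and hepatocyte markers (1 of 7). The summed FPKM of the 10 markers was 55.0, 44.3 and 41.9 in the C57BL/6 mice and 15.8, 55.2 and 138 in the wild mice. Within that sum Clec4f held between 36.6% and 53% in the C57BL/6 mice and 38.2%, 34.2% and 21% in wild mice 1, 2 and 3. Cd5l held at most 6.08% in the C57BL/6 mice and 26.2% in wild mouse 3, so the make-up of the sum differed along with its size.

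The study's design sets laboratory against wild mice, and this comparison was made on zFPKM, a score that centres the log2 FPKM of a mouse on the mode of its genes and scales it by their fitted SD. The mode ranged from 0.491 to 2.12 among the C57BL/6 mice alone, so equal FPKM can give unequal zFPKM. Cd163, with nearly equal FPKM in these mice, had zFPKM of -0.376, -0.482 and -1.11. Spreads and differences on zFPKM therefore include this scaling, and its share in them was not tested. Of the 10 markers 1, Folr2, passed an adjusted p of 0.05 in limma, where 14.4% of the 18619 tested genes did. The Folr2 level was 0.135 ± 0.626 (SD, n = 3) in C57BL/6 mice and -0.899 ± 0.672 (SD, n = 3) in wild mice on zFPKM. It was 1.03 higher in C57BL/6 mice on zFPKM (standard error 0.305, limma adjusted p = 0.00828), and 2.08 higher on log2(FPKM + 0.1), a scale on which the median of all tested genes was 0.47 lower in C57BL/6 mice (-0.47). Laboratory mouse 3 at -0.577 and wild mouse 1 at -0.564 on zFPKM overlapped. Over 17 alternatives the adjusted p of Folr2 ranged from 0.00383 to 0.45 and it was called in 5. The call was lost without laboratory mouse 1 (adjusted p = 0.257), laboratory mouse 2 (0.165), wild mouse 1 (0.061) or wild mouse 3 (0.279), and when the variance was fitted without a trend (0.211).

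None of the other 9 markers passed in limma, and 2 of them had an unadjusted p under 0.05, beside 4782 of the 18619 tested genes. The difference of laboratory from wild mice on zFPKM was 0.417 for Clec4f (standard error 0.165, limma adjusted p = 0.0696), 0.475 for Cd68 (standard error 0.214, adjusted p = 0.127) and 0.702 for Cd163 (standard error 0.408, adjusted p = 0.275). For Cd5l, whose wild mean FPKM was 6.36 times the laboratory mean, it was -0.328 (standard error 0.225, adjusted p = 0.381). The remaining 5 lay between -0.133 for Adgre1 and 0.406 for Marco, with adjusted p between 0.444 and 0.912. No marker had laboratory and wild FPKM that did not overlap (0 of 10), against 55.8% of all tested genes. With wild mouse 1 left out, Cd5l passed (adjusted p = 0.0283) and Folr2 did not, beside 11.4% of all tested genes that passed.

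Sex and origin were partly confounded, because both females were wild. The FPKM of the 4 males and the 2 females did not overlap for 6 of 10 markers, against 31.3% of all tested genes. Among lists described below, the same was so for 10 of 16 general macrophage genes, 7 of 12 further Kupffer cell genes and 9 of 13 niche signals. It was so for 0 of 9 T and B cell markers and 0 of 6 biliary markers. The count thus does not set the markers apart from the macrophage lists. Vsig4, Cd5l, Timd4, Adgre1 and Csf1r were higher in both females than in every male, and Folr2 was lower. For Vsig4 the males ran from 3.23 to 6.48 and the females from 8.57 to 21.8, and for Cd5l the males from 1.40 to 2.75 and the females from 10.2 to 36.1. For Csf1r the gap was narrow, from 5.71 in the highest male to 5.74 in the lowest female. With sex as a covariate limma called 4 markers (Clec4f, Cd68, Csf1r and Cd163, all higher in C57BL/6 mice), beside 7.38% of all tested genes in the same fit, and Folr2 lost its call (difference 0.70 on zFPKM, adjusted p = 0.431). This contrast rests on wild mouse 1 against the laboratory males. Sex, site of capture and the individual animal cannot be told apart within the wild group.

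To ask whether the markers moved as other macrophage genes did, each was set against the mean log2(FPKM + 0.1) of 16 general macrophage genes of the same mouse, among them the complement C1q chains, Fc receptors and lysozyme 2. This mean was 1.84, 1.83 and 1.24 in the C57BL/6 mice and 0.799, 2.45 and 3.48 in wild mice 1, 2 and 3, and was thus lowest in wild mouse 1 and highest in wild mouse 3 as well. Relative to it 5 of 10 markers had no overlap between the groups, against 13.3% of all tested genes. On the same measure the groups did not overlap for 9 of the 16 general macrophage genes, which form the reference themselves, or for 6 of 12 further Kupffer cell genes, so the count does not set the markers apart from these lists. All 5 were higher in C57BL/6 mice, each with p = 0.1 in a two-sided exact permutation test, the smallest that 3 mice against 3 allow. They are Clec4f, Timd4, Cd68, Csf1r and Cd163.

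The relative level of Clec4f was 2.67, 2.20 and 3.24 in the C57BL/6 mice and 1.82, 1.80 and 1.38 in the wild mice, a difference of 1.04. The difference was 0.45 for Timd4, 0.67 for Csf1r, 1.18 for Cd68 and 1.40 for Cd163. Before the reference was taken off, it was 0.44 for Clec4f, -0.15 for Timd4, 0.06 for Csf1r, 0.58 for Cd68 and 0.80 for Cd163. The reference, lower on average in C57BL/6 mice, thus added a like amount to each of these differences. It made up all of the relative difference of Timd4, nearly all of that of Csf1r and the larger part of that of Clec4f. For Cd68 it was about as large as the difference of the gene itself, and for Cd163 it was smaller. The relative level of Vsig4 ranged from 0.37 to 0.98 over the 6 mice with overlapping groups, so its 6.74-fold range among the wild mice was close to that of the reference genes. Cd5l kept its order among the wild mice after the reference was taken off, but wild mouse 1 then lay inside the C57BL/6 range, at -0.34, -0.35 and -0.13 in the C57BL/6 mice and -0.22, 0.91 and 1.70 in wild mice 1, 2 and 3 (difference -1.07, exact permutation p = 0.2). Marco was above its laboratory levels only in wild mouse 3, at 0.41, and stood at -2.70 and -2.96 in wild mice 1 and 2. Folr2 was 0.27 in wild mouse 1, inside the laboratory range, and -2.43 and -5.66 in wild mice 2 and 3 (difference 2.68, exact permutation p = 0.3).

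**Figure D3:**
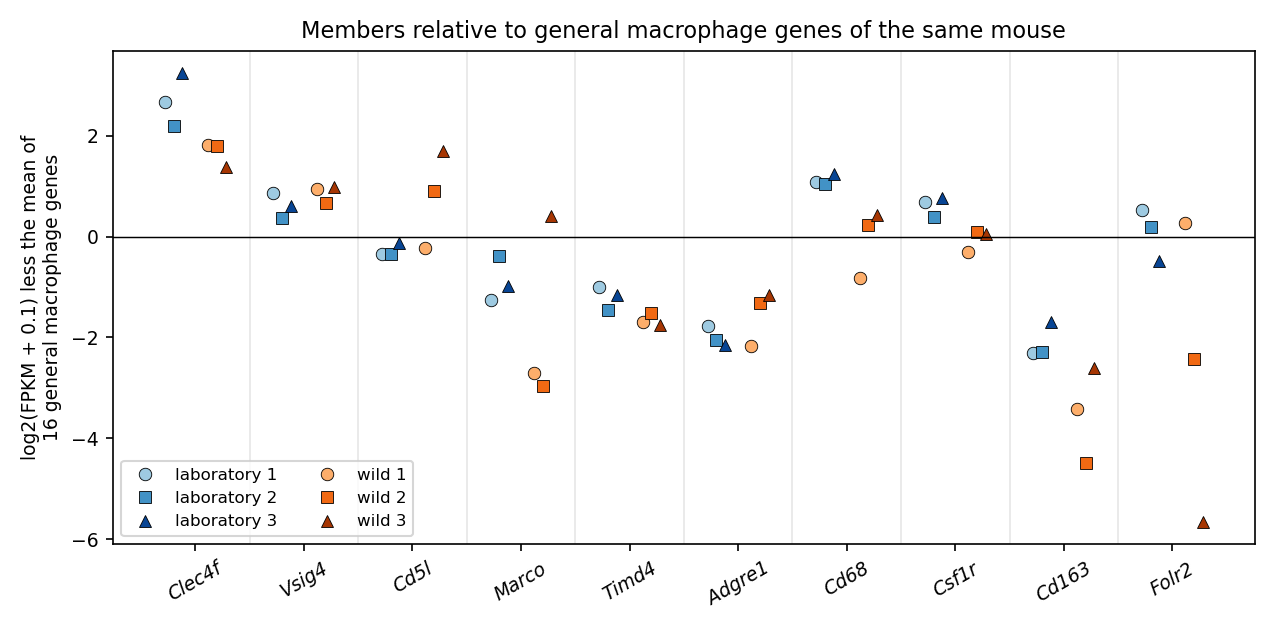
Level of each marker on log2(FPKM + 0.1) less the mean of 16 general macrophage genes in the same mouse, with C57BL/6 mice in blue and wild mice in orange. Clec4f, Timd4, Cd68, Csf1r and Cd163 are higher in every laboratory mouse than in every wild mouse, and Folr2 spreads from 0.27 in wild mouse 1 to -5.66 in wild mouse 3.

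Among the 16 general macrophage genes themselves, 15 had wild mouse 1 as the lowest and wild mouse 3 as the highest of the wild mice. In limma 2 were called higher in C57BL/6 mice, the signalling adaptors Fcer1g and Tyrobp, and 2 lower, Lyz2 and Mpeg1. The laboratory and wild FPKM overlapped for both Fcer1g and Tyrobp. The mean FPKM of Tyrobp was 21.6 in C57BL/6 mice and 21.8 in wild mice. Its level was 2.27, 16.5 and 46.7 in wild mice 1, 2 and 3, so that wild mouse 3 was the highest of all mice. Lyz2, lysozyme 2 of phagocytes, had an FPKM of 5.30, 7.58 and 2.89 in the C57BL/6 mice and of 12, 51.1 and 123 in the wild mice (zFPKM difference -0.837, standard error 0.172, adjusted p = 3.74e-05). Mpeg1, the pore-forming perforin 2, had 5.90, 6.14 and 3.77 against 30.4, 34.4 and 47.1, with no overlap between the groups. C1qa, the most abundant of these genes, ran at 38.3, 36.2 and 18.6 in the C57BL/6 mice and 11.3, 35.8 and 70.1 in the wild mice, the order of the markers. The least abundant was the integrin Itgam, at most 0.356 in any mouse.

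Of 12 further genes associated with Kupffer cells, 2 were called higher in C57BL/6 mice (C6 and Cfp) and 1 lower (Hpgd), beside a background of 14.4%. Hpgd, which degrades prostaglandins, was 7.02, 13.5 and 11.7 against 87.5, 90.3 and 92.5. Wild mouse 1 was the lowest and wild mouse 3 the highest of the wild mice for 6 of the 12. Cfp, the complement protein properdin, was 18.3, 13.7 and 12.7 in the C57BL/6 mice and 2.42, 7.67 and 20.4 in the wild mice. C6, a component of the complement membrane attack complex that hepatocytes also make, was 55.0, 56.5 and 39.5 in the C57BL/6 mice, 48.2 in wild mouse 1 and 1.67 and 6.42 in wild mice 2 and 3. Its laboratory and wild groups thus overlapped, while every male lay above both females. Nr1h3, the LXRα receptor and the highest of the list, is expressed in hepatocytes too, and Spic, its lowest, is a factor of red pulp and iron-recycling macrophages. Of 9 macrophage transcription factors none (0) passed in limma, 1 had an unadjusted p under 0.05, and for 5 of them the wild mice had the order of the markers. The Spic FPKM ran from 0.0390 in wild mouse 1 to 0.627 in laboratory mouse 3.

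For genes of monocytes and recruited macrophages, 1 of 8 passed. Gpnmb, a glycoprotein of lipid-laden macrophages, was listed at 0, 0.0131 and 0.0283 in the C57BL/6 mice and at 0.0343, 0.804 and 6.21 in the wild mice (zFPKM difference -1.75, standard error 0.470, limma adjusted p = 0.00297). Plac8, the highest of this list, had overlapping groups. Of 13 niche signals and macrophage growth factors, 2 were called lower in C57BL/6 mice and the rest were not called. These were Bmp10 and Gdf2 (BMP9), ligands of the ALK1 receptor that sustains Kupffer cell identity. Gdf2 had an FPKM of 0.877, 0.793 and 0.604 in the C57BL/6 mice and of 3.99, 6.68 and 5.99 in the wild mice. Bmp10 was listed at 0 in laboratory mice 1 and 3, at 0.0842 in laboratory mouse 2 and at 0.665, 1.27 and 1.18 in the wild mice. For both, all wild mice exceeded all C57BL/6 mice. Smad4, which acts downstream of these receptors and was the highest of the list, did not pass on zFPKM (limma adjusted p = 0.446). Its FPKM was nevertheless 1.53, 1.70 and 1.72 in the C57BL/6 mice and 4.92, 4.94 and 5.51 in the wild mice. These groups did not overlap, as was so for 55.8% of all tested genes.

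Of 9 ligands of receptors that the markers encode, 5 were called higher in C57BL/6 mice and 1 lower. The 5 were the globin genes Hba-a1, Hba-a2, Hbb-bt and Hbb-bs and haptoglobin (Hp), which form the cargo of CD163. Hba-a2 had an FPKM of 931, 1609 and 463 in the C57BL/6 mice and of 217, 333 and 347 in the wild mice, without overlap (zFPKM difference 0.801, standard error 0.1, limma adjusted p = 2.45e-13). Globin genes share near-identical copies, so the split of their reads is uncertain. The Hp groups overlapped, at 3089, 3823 and 1578 against 2184, 2731 and 3228, and its log2(FPKM + 0.1) difference was -0.02. C3, whose fragments VSIG4 binds, was 824, 825 and 513 in the C57BL/6 mice and 2261, 3012 and 2873 in the wild mice, the opposite direction (zFPKM difference -0.414, standard error 0.0909, adjusted p = 1.38e-04). The lowest of the list was Il34, a ligand of CSF1R, at 0.350 in wild mouse 1 and 2.12 and 2.15 in wild mice 2 and 3.

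Among 11 scavenger and clearance receptors 1 passed. Cd36, which takes up oxidised lipoproteins and fatty acids in several cell types, was 1.95, 1.64 and 1.48 in the C57BL/6 mice and 25, 72.4 and 79.2 in the wild mice (zFPKM difference -1.47, standard error 0.188, adjusted p = 8.82e-13). Scarb1, the highest of the list and mainly a hepatocyte receptor for high-density lipoprotein, did not pass on zFPKM (limma adjusted p = 0.0765). Its FPKM was 39.3, 35.2 and 22.7 in the C57BL/6 mice and 99.3, 102 and 95.6 in the wild mice, without overlap. Havcr2, the lowest, was listed at no more than 0.190. Of 9 genes of haem and iron recycling, Blvrb, a biliverdin reductase, was called higher in C57BL/6 mice (zFPKM difference 0.327, standard error 0.115, limma adjusted p = 0.0359). Its FPKM overlapped, at 164, 181 and 145 against 114, 140 and 177. Trf, the plasma iron carrier transferrin, was called lower, at 1842, 2126 and 1291 against 7699, 10798 and 10295. The groups did not overlap for 7 of the 9, against 55.8% of all tested genes. These were Slc40a1, Hmox1, Blvra, Slc48a1, Fth1, Ftl1 and Trf, all higher in wild mice. Slc11a1, the iron exporter of phagosomes and the lowest of the list, was 0.256, 1.60 and 3.64 in wild mice 1, 2 and 3 and between 1.55 and 2.14 in the C57BL/6 mice.

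Markers of other liver cells were compared with the wild order of the Kupffer cell markers. The median difference of wild mouse 3 from wild mouse 1 on log2(FPKM + 0.1) was 3.26 over the 10 markers and 2.80 over the general macrophage genes. It was 1.24 over the 12 further Kupffer cell genes and 1.98 over 7 natural killer markers. It was 0.89 over 9 T and B cell markers, 0.88 over 5 neutrophil markers, 0.79 over 10 sinusoidal endothelial markers, 0.48 over 9 stellate cell markers, 0.15 over 7 hepatocyte markers and -0.86 over 6 biliary markers. The further Kupffer cell genes did not share the order of the markers as a list. Their median difference from the laboratory mean was -0.03, 0.87 and 0.48 in wild mice 1, 2 and 3. The endothelial markers followed another order, since all 10 were at least 2 times higher in wild mouse 2 than in wild mouse 1 and none had wild mouse 3 as the highest of the 6. Their median difference of wild mouse 3 from wild mouse 2 was -0.77, where that of the Kupffer cell markers was 1.20. Clec4g, the highest of them, was 10.6, 34.4 and 19.9 in wild mice 1, 2 and 3.

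Their summed FPKM moved with some of the results above. The endothelial sum was 32.6, 97.6 and 54.6 in wild mice 1, 2 and 3 and between 41.6 and 63.2 in the C57BL/6 mice, with no marker at 0. The summed level of 7 neutrophil markers was 8.03 to 14.1 in C57BL/6 mice and 1.95 to 3.14 in wild mice, with 4 of the 7 listed at 0 in wild mouse 1 and S100a9, the highest, called higher in C57BL/6 mice (adjusted p = 0.00152). The natural killer sum was 0.693, 1.41 and 4.62 in wild mice 1, 2 and 3 and 0.638 to 1.80 in C57BL/6 mice, with 3 of 7 at 0 in wild mouse 1. The T and B cell sum was 2.01, 2.16 and 5.19 against 5.71 to 6.78. The part of these cell types in the marker levels was not tested. Limma called 2 of the 9 T and B cell, 2 of the 5 tested neutrophil, 2 of the 9 stellate cell and 1 of the 6 biliary markers (Spp1), all higher in C57BL/6 mice. It called 0 of 10 endothelial and 0 of 7 natural killer markers, of which 2 and 0 had an unadjusted p under 0.05. Of 7 tested hepatocyte markers 3 were called higher and 2 lower in C57BL/6 mice. They were abundant in every mouse, the highest of those tested being Apoa1 at an FPKM between 7721 and 19565. Of 7 tested markers of other tissue macrophages, Fabp4, a lipid-binding protein also made by fat and endothelial cells, was the highest and ran from 6.55 to 13.4, and 1 of the 7 was called.

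**Figure D4:**
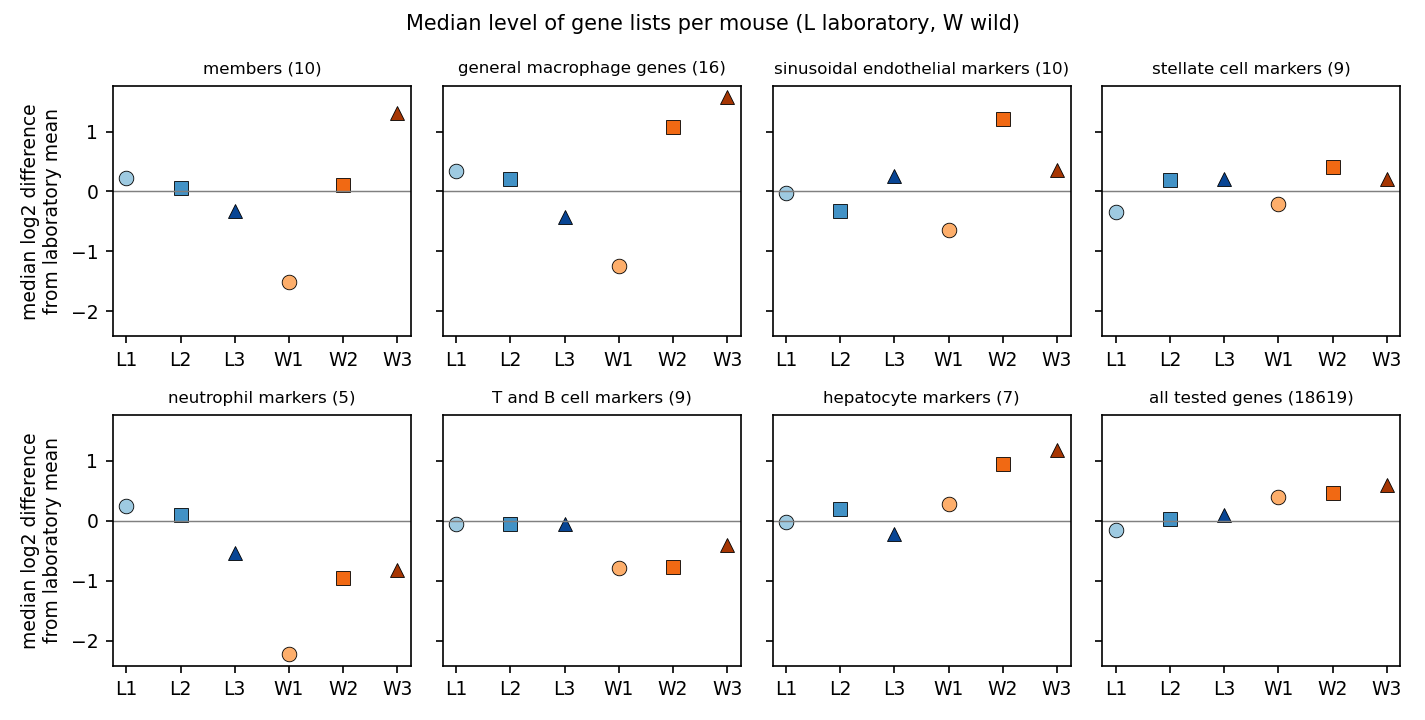
Median over each gene list of the difference from the laboratory mean on log2(FPKM + 0.1), per mouse (L laboratory, W wild), with the number of genes in brackets. The Kupffer cell markers run from -1.52 in wild mouse 1 to 1.31 in wild mouse 3 and the general macrophage genes from -1.24 to 1.57, while all tested genes lie between 0.39 and 0.60 in the wild mice.

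The limits of the comparison are its 3 mice per group and its units. No read counts were used, so absolute depth is unknown, and between 18107 and 19709 genes had an FPKM above 0 per mouse. In the limma fit the prior on the variance was so strong that a gene's own spread had no weight. The markers spread more among wild mice than most tested genes did. For 10 of 10 markers the standard error from limma was thus smaller than the one from the marker's own 6 values. The same held for 16 of 16 general macrophage genes and for 6502 of the 18619 genes.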

How the data were processed

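RNA was extracted by the authors from frozen liver with an AllPrep kit, and libraries made with the Illumina stranded mRNA kit were read from 1 end. The authors aligned reads to a masked GRCm38.p6 genome by kalign and deposited FPKM from the Tuxedo pipeline for each gene and mouse. Beside it the authors deposited zFPKM, a score taken from log2 FPKM with a mode (0.491 to 2.51) and an SD (2.51 to 3.12) of each mouse.

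Of 47256 gene names listed once in every mouse, 24 with a marked failed estimate were left out. Failures are not marked for laboratory mouse 1. Genes that exceeded a zFPKM of -3 in 3 or more of 6 mice were tested, lower values set to -3, with limma 3.58.1 in R 4.3.3 (lmFit, eBayes with trend, Benjamini-Hochberg over 18619 genes). The count test of the study was not repeated, since the values are not counts. Levels relative to general macrophage genes used log2(FPKM + 0.1) in place of log2 FPKM, because 1 of the 16 genes (Ms4a7) was listed at 0 in wild mouse 1; Aif1 and Laptm5 have repeated names and were left out. Tests of single values were two-sided exact permutations. Motifs were searched in the 250 bases before each start. Other steps used Python 3.11.15 with pandas 2.3.3. The limma step was tested on simulated data.

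The alternatives were other scales, scalings, filters, floors and variance models, sex as a covariate and each mouse left out. The members and the gene lists, some of which share genes, were chosen with earlier results of these data known. The text names all 10 markers, the highest and lowest tested gene of each list by mean zFPKM and up to 5 called genes in each direction, and for other cell types the highest gene. The labels give no replicate numbers and do not say that mice were paired. In the main fit, limma p-values rest on a variance shared by genes of similar level, not on a gene's own spread between animals.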

Additional observations from a re-analysis of the deposited data

How the results depend on the processing

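Of 170 marker values under the alternatives, 134 kept their direction and their side of the threshold, 12 lost a call (all of Folr2), 5 gained one and 19 changed sign. In the fit reported above 1 marker, 32 genes of the other lists and 2690 of all tested genes were called. On log2(FPKM + 0.1), on log2(FPKM + 1), with equal medians of log2(FPKM + 0.1) and after quantile normalization, 8589, 8242, 8817 and 7282 genes were called, and 23, 795 and 1374 with no filter, without a variance trend and with sex as a covariate. No marker was called (0) on the first pair of these scales, after quantile normalization, with no filter, with a floor of -5, without a trend or with the general macrophage mean subtracted, and 4 were with sex as a covariate. At an unadjusted p under 0.05 there were 0 markers with no filter and 1 to 2 under the others of these settings without a call. The share of all tested genes at that level is not given for these settings. On the other lists 55 genes were called with equal medians, 0 with no filter, 18 with a floor of -5 and 4 without a trend. Leaving out each mouse in turn gave 0 to 1 called markers, 19 to 32 called genes of the other lists and 1420 to 2556 called genes in all. Relative to the general macrophage genes it gave 5 to 8 markers without overlap, beside 13.9% to 52.2% of all tested genes, with both upper ends reached without wild mouse 1. With the markers as the reference the count was 4, beside 16.6%. The cause of these changes was not tested.

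The changes of sign concern markers that were not called. With sex as a covariate the difference of laboratory from wild mice was 0.65 for Vsig4, 0.79 for Cd5l and 0.97 for Adgre1. On log2(FPKM + 1) it was -0.23 for Marco, -0.18 for Timd4 and -0.03 for Csf1r, and on log2(FPKM + 0.1) -0.15 for Timd4. Over the mice left out it ranged from -0.41 to 0.21 for Vsig4, -0.89 to 0.08 for Cd5l, -0.24 to 1.07 for Marco, -0.23 to 0.47 for Timd4, -0.68 to 0.21 for Adgre1, -0.05 to 0.82 for Cd68 and -0.15 to 0.55 for Csf1r, with the lower end of each reached without wild mouse 1. No paired analysis was made, because the laboratory and wild mice were different animals from different sources.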
